A study of Mus musculus with 14 samples.

Results

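The 10 genes described here, Gbp2, Gbp3, Gbp4, Gbp6, Gbp7, Irgm1, Irgm2, Igtp, Iigp1 and Tgtp2, encode interferon-induced GTPases of the mouse. They were taken by symbol from a table of 54532 gene rows; each symbol was found, 5 of them guanylate-binding proteins (GBP) and 5 immunity-related GTPases (IRG). RNA had been sequenced in bulk from 2 sorted populations of C57BL/6 bone marrow. LT-HSC stands for stem cells with long-term activity, and GMP for progenitors of granulocytes and monocytes. AML1-ETO mice carried the genotype Runx1-Runx1t1, the mouse form of the t(8;21) leukaemia fusion, and control mice were labelled WT. For either population there were 3 libraries from AML1-ETO mice and 4 from controls. The fusion was switched on through Mx1-Cre, a recombinase under an interferon-responsive promoter, by poly(I:C), a synthetic double-stranded RNA that itself induces interferon. Poly(I:C) was given into the peritoneum at 5 mg/kg on alternate days for 4 doses, and the same treatment is listed for all 14 samples, controls included. Mx1-Cre is active in many cell types besides blood stem cells, so the fusion was not limited to the sorted populations. How long after the last dose the cells were sorted, by which surface markers, from mice of which sex and how many per library, and whether controls carried Mx1-Cre, is not in the labels.

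Interferons bind receptors that signal through JAK kinases to transcription factors, and these and IRF1 bind 2 kinds of promoter element, the interferon-stimulated response element (ISRE) and the gamma-activated site (GAS). GBP and IRG proteins are among the strongest products of that response. They assemble on the membranes of vacuoles that hold bacteria or parasites, and GBPs help expose bacterial ligands to caspase-11 (Casp4) and other inflammasome sensors. Within the IRG family, Irgm1, Irgm2 and Igtp are the regulators of the GMS type, named after a motif in their nucleotide-binding site, which sit on the cell's own membranes and hold the others inactive. Iigp1 and Tgtp2 are effectors of the GKS type, which load onto vacuoles. In stem cells of the marrow, interferon exposure is known to bring cells out of rest, and Irgm1 is known to be needed for the stem cell pool to persist under such stress.

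All 10 genes are annotated as protein-coding, and 9 of them lie on 3 chromosomes of the mm10 genome (GENCODE M21). Gbp7 (chr3:142530342-142550149), Gbp3 (chr3:142560026-142573209) and Gbp2 (chr3:142620602-142638008) lie in this order on the plus strand of chromosome 3, with Gbp2b between Gbp3 and Gbp2. Gbp4 (chr5:105115767-105139586) and Gbp6 (chr5:105270702-105293698) lie on the minus strand of chromosome 5. Chromosome 11 holds Irgm1 (chr11:48861968-48871683) and Tgtp2 (chr11:49057194-49064206) on the minus strand, and Igtp (chr11:58199556-58207591) inside the span of Irgm2 (chr11:58199618-58222782) on the plus strand but for its first bases. Reads cannot always be assigned within such families. Of the 50-base windows of Tgtp2 transcripts, 86.6% also occur in another gene, nearly all in its copy Tgtp1, and for Gbp6 the share is 70.7%, mostly in Gm43302 and Gbp10. Tgtp2 and Gbp6 are therefore uncertain as single genes, and their values may stand for the copies too. The share is 12.7% for Gbp7, 11.8% for Igtp, which overlaps Irgm2, and at most 7.83% for the other 6 genes.

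RefSeq (GRCm38.p6) promoter windows, from 250 bases before to 50 after the gene's start, were at hand for 7 of the 10 genes: Gbp2, Gbp3, Gbp7, Irgm1, Irgm2, Igtp and Tgtp2. A pair of GAAA with any 2 bases between them, the core of an ISRE, or its reverse complement, a pair of TTTC with any 2 bases between them, occurred in 7 of these 7 windows and in 3.44% of all 32851 windows. The letters TTCNNNGAA, the core of a GAS, which read the same on both strands, occurred in 4 of the 7 (Gbp7, Irgm2, Igtp and Tgtp2) and in 8.30% of all windows. The last 110 bases before each start are printed because they hold every match in those windows; they are read 5′ to 3′ on the gene's strand, and capitals mark the bases of either motif, with overlapping matches run together.
Gbp2: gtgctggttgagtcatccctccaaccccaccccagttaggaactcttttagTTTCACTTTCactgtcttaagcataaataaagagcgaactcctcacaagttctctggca
Gbp3: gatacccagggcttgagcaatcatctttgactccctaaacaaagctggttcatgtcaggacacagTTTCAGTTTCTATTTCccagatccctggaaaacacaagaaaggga
Gbp7: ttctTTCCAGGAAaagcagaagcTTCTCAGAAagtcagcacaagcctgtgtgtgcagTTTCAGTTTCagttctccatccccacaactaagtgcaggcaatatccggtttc
Irgm1: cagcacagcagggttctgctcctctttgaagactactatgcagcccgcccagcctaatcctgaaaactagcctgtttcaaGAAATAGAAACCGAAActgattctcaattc
Irgm2: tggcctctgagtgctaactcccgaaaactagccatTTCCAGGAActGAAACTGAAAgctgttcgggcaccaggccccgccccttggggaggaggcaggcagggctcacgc
Igtp: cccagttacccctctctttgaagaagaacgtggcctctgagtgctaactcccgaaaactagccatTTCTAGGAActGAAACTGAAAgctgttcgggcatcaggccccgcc
Tgtp2: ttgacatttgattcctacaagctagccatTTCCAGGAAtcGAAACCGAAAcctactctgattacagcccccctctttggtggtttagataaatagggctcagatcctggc

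In the order printed, these stretches are chr3:142620553-142620662, chr3:142559934-142560043, chr3:142530226-142530335, chr11:48871421-48871530, chr11:58214867-58214976, chr11:58199446-58199555 and chr11:49064213-49064322, with Irgm1 and Tgtp2 on the minus strand and the others on the plus strand. In Irgm2, Igtp and Tgtp2 the GAS-like match starts 11 bases before the ISRE-like match. That arrangement occurred in 5 of all 32851 windows, the others being those of Tgtp1 and Gm12185. Only this exact spacing and order, the one seen in these genes, was counted, so its rarity is a description and not a test. The copies are not independent, since the printed stretches of Igtp and Irgm2 were 97.5% identical over 80 aligned bases and those of Igtp and Tgtp2 64.9% identical over 74. Gbp3 and Irgm1 each hold a pair of overlapping ISRE-like matches, which begin 45 and 39 bases before the start in Gbp3 and 30 and 24 bases before it in Irgm1. A match is a description of letters, and binding was not measured.

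**Figure D1:**
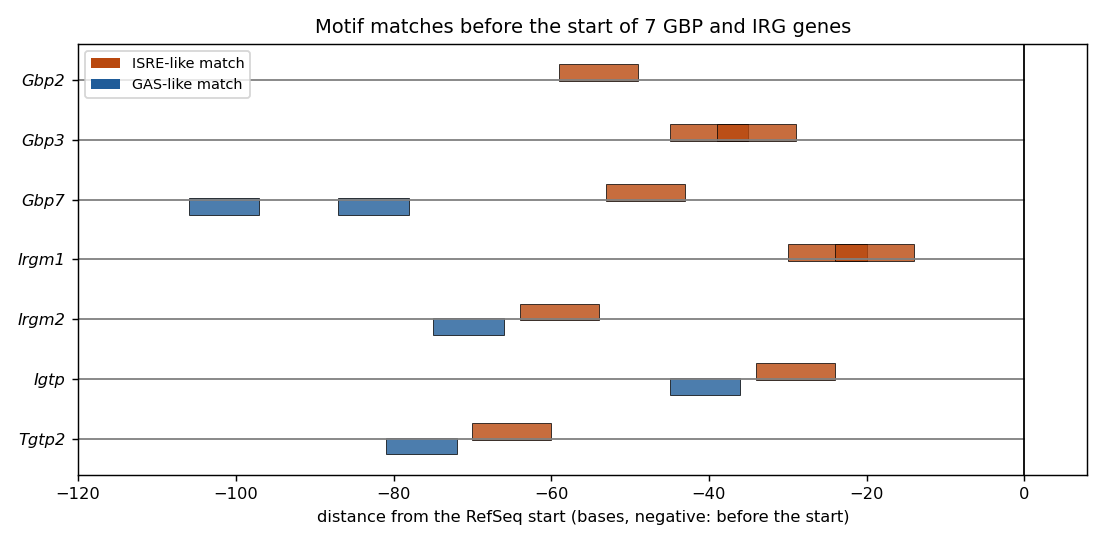
Positions of the ISRE-like (orange) and GAS-like (blue) letter matches before the RefSeq start of 7 GBP and IRG genes, in bases, with negative values before the start. ISRE-like matches stand in all 7 rows, and GAS-like matches in the rows of Gbp7, Irgm2, Igtp and Tgtp2.

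Libraries held 13210952 to 19403864 counts. Levels below are CPM, the usual library-size-normalised counts, with TMM scaling over the 14 libraries. Genes count as called where edgeR's quasi-likelihood test gave a Benjamini-Hochberg adjusted p under 0.05. Runx1t1, the partner that the fusion adds to Runx1, had 85.5, 164 and 125 CPM in AML1-ETO LT-HSC libraries against 0 to 18.1 in control ones, and 26.0 to 45.6 against 1.69 to 2.73 in GMP libraries. The 8 GMP markers summed to 20767 to 34626 CPM in GMP libraries and 90.5 to 1436 in LT-HSC libraries, and the 9 LT-HSC markers to 796 to 1955 CPM in LT-HSC and 233 to 441 in GMP libraries. Each of the 9 LT-HSC markers had counts in both LT-HSC groups, and each of the 8 GMP markers in both GMP groups. The labels do not say that replicates came from different mice, so a p-value refers to the spread among these libraries, part of which may be technical. In control LT-HSC replicate 3 the GTPases were low: its levels were the lowest of the control LT-HSC libraries for all 10 genes, and it had the fewest genes with a count, 12106. AML1-ETO GMP replicate 1 had 1549.5 CPM of macrophage and monocyte markers against 246 to 266 in control GMP libraries, and 3057 CPM of neutrophil markers against 45.8 to 60.4. Values of the 10 genes whose call turns on either library are given with and without it, and so are named pathway genes. In bulk samples, fewer cells of a type and less RNA per cell cannot be told apart.

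**Figure D2:**
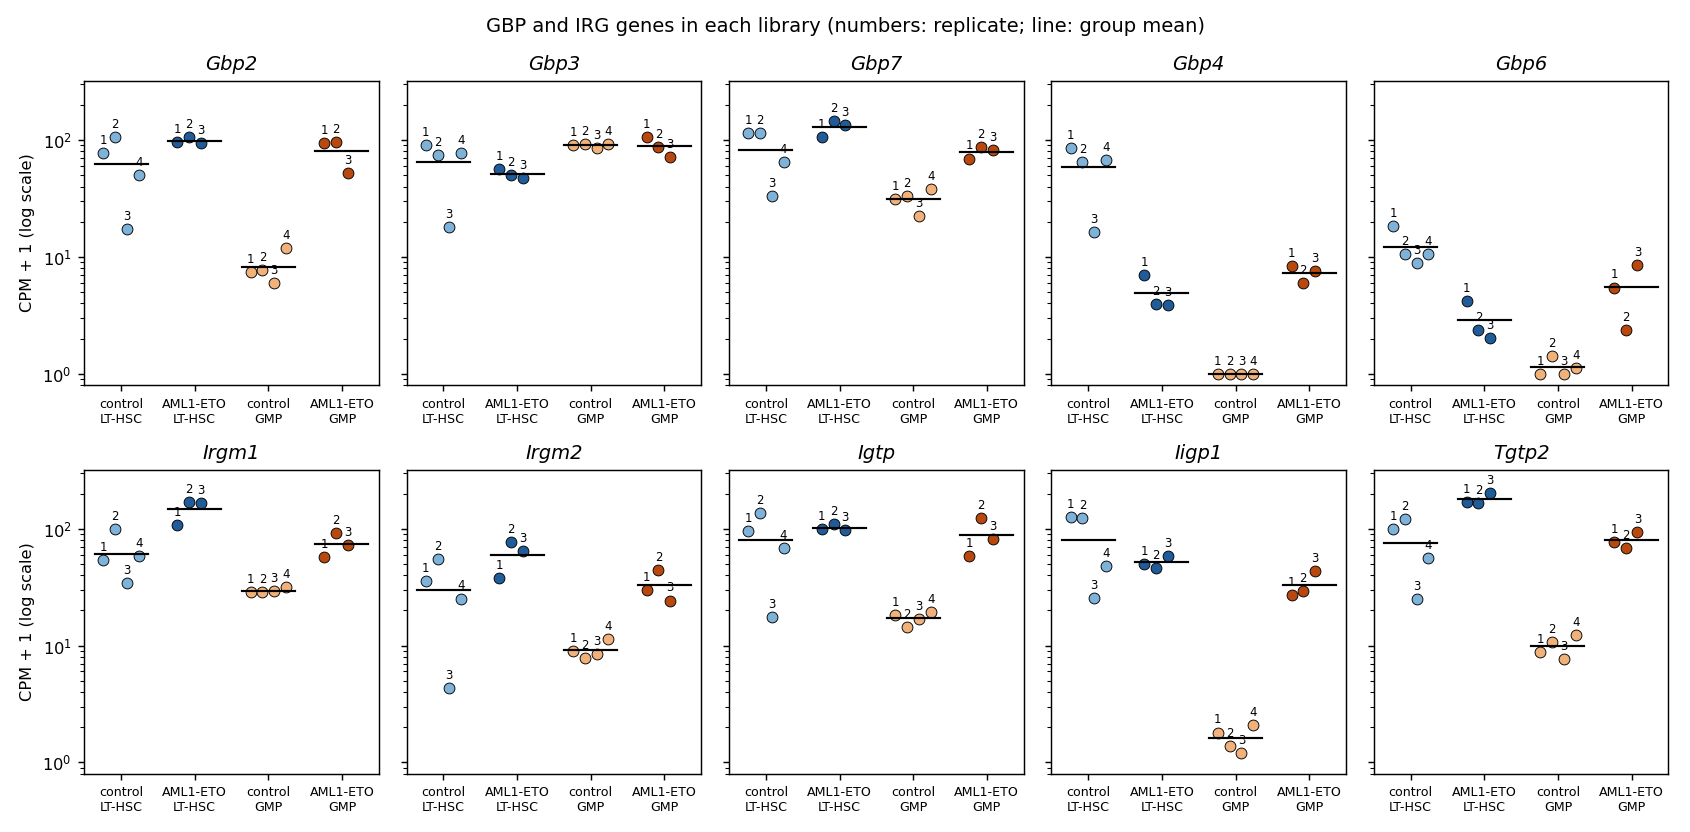
Level of each of the 10 GTPase genes in every library, as CPM + 1 on a log axis; points are libraries with their replicate numbers and lines are group means. The control GMP mean is the lowest of the 4 for every gene but Gbp3, and control LT-HSC replicate 3 sits at the bottom of its group in each panel.

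In control GMP libraries Gbp3 had the highest CPM of the 10 genes. It stood at 89.2 ± 3.36 CPM (SD, n = 4). Next came Gbp7 at 30.2 ± 6.70, Irgm1 at 28.6 ± 1.41 and Igtp at 16.3 ± 2.20 CPM. Tgtp2, Irgm2 and Gbp2 lay between 7.27 and 8.82 CPM, Iigp1 at 0.620 and Gbp6 at 0.137 CPM. Gbp4 had no count in any of the 4 libraries, which at 3 counts over the group allows up to 0.0429 CPM. In AML1-ETO GMP libraries 8 of the 10 genes rose, and none fell; over all 13981 genes tested in GMPs, 9.43% were called, 5.47% as higher and 3.96% as lower. The median log2 difference of the 10 genes was 2.80, against -0.03 over all genes.

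Among the GBPs on chromosome 3, Gbp2, a GTPase that coats vacuoles of intracellular bacteria, had 93.1, 95.7 and 51.3 CPM in AML1-ETO GMP libraries and 6.47, 6.67, 4.93 and 10.99 CPM in control ones. Every AML1-ETO library stood far above the highest control. The rise was 3.48 ± 0.33 on the log2 scale (SE; adjusted p = 0.0030). Gbp7 had 68.5, 85.5 and 81.3 CPM against 30.1, 32.0, 21.2 and 37.3 CPM, with no overlap, a rise of 1.40 ± 0.20 (adjusted p = 0.0106). Leaving out control GMP replicate 1 ended that call (adjusted p = 0.0523). Gbp3, which lies between them, did not share the difference: 105, 86.6 and 70.8 CPM in AML1-ETO libraries fell on both sides of 89.3, 91.5, 84.4 and 91.5 CPM in controls, for a log2 difference of -0.01 ± 0.14 (adjusted p = 0.98), whose sign turned with DESeq2 size factors.

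On chromosome 5, Gbp4 had 7.42, 4.97 and 6.61 CPM in AML1-ETO GMP libraries and 0 in each control library. That is at least 148-fold higher, taking 3 counts over the control group as the floor (adjusted p = 0.0121). Gbp6, on the same chromosome, had 4.47, 1.37 and 7.59 CPM against 0, 0.430, 0 and 0.116 CPM. The groups of Gbp6 did not overlap, but the log2 difference of 4.96 ± 1.37 did not pass the test (adjusted p = 0.062); without AML1-ETO GMP replicate 1 it did (4.95 ± 1.35, adjusted p = 0.0483).

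All 3 GMS-type regulators rose in AML1-ETO GMP libraries. Irgm1 had 56.2, 90.3 and 71.8 CPM against a narrow 27.8, 27.7, 28.1 and 30.6 CPM in controls, a rise of 1.37 ± 0.17 (adjusted p = 0.0070). For Irgm2 the values were 29.0, 43.7 and 23.3 CPM against 7.97, 6.78, 7.46 and 10.4 CPM, a rise of 1.99 ± 0.28 (adjusted p = 0.0100). No library of one group reached the other group in either gene. The call of Irgm2 ended without control GMP replicate 1 or 3 and in a fit of all 14 samples (adjusted p up to 0.0955 over the alternatives tried). Igtp had 57.7, 122 and 80.2 CPM against 17.4, 13.4, 15.9 and 18.5 CPM, a rise of 2.43 ± 0.26 (adjusted p = 0.0046).

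Both GKS-type effectors rose as well. Iigp1 (chr18:60376027-60392634, plus strand) had 26.2, 28.2 and 42.5 CPM in AML1-ETO GMP libraries against 0.802, 0.377, 0.195 and 1.10 CPM, a rise of 5.70 ± 0.54 (adjusted p = 0.0030), the largest among the genes with counts in both groups. Tgtp2, counted with reads its copy Tgtp1 may share, had 75.3, 67.6 and 93.1 CPM against 7.81, 9.63, 6.62 and 11.2 CPM, a rise of 3.17 ± 0.22 (adjusted p = 0.0012). Counted together, 9 of the 10 genes were higher in every AML1-ETO GMP library than in any control one, which held for 10.6% of all genes tested. Without AML1-ETO GMP replicate 1, 9 of the 10 genes were called as higher.

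Markers of other cells also differed between the GMP groups. Of the 10 macrophage and monocyte markers, 6 were called as higher in AML1-ETO libraries and none as lower; the list summed to 1549.5, 236 and 395 CPM there and to 246 to 266 CPM in controls. Neutrophil markers summed to 355 to 3057 CPM against 45.8 to 60.4, erythroid markers to 34.9 to 2526 against 5.13 to 6.51, endothelial markers to 43.2 to 342 against 15.3 to 20.2, megakaryocyte markers to 148 to 1510.1 against 84.6 to 107, and mast cell and basophil markers to 2004 to 3024 against 236 to 381. Of 8 LT-HSC markers tested, 3 were called as higher in AML1-ETO GMP libraries and 1 as lower, with list sums of 233 to 441 CPM against 326 to 377. T and NK cell markers, of which Nkg7 gave most, summed to 235 to 340 CPM against 269 to 317. Cd3e, Trac and Ifng had counts in AML1-ETO GMP libraries only, and Klrb1c in control ones only. Cd3g, Ncr1 and Gzma were at 0 in both groups. In AML1-ETO GMP replicate 2 the macrophage list was below every control library and the dendritic cell list was at 2.42 CPM against 3.21 to 4.35. In that library 5 of the 10 GTPases (Gbp2, Gbp7, Irgm1, Irgm2 and Igtp) were at their highest of the 3 AML1-ETO GMP libraries and 3 (Gbp4, Gbp6 and Tgtp2) at their lowest. Their part in the GTPase differences was not tested.

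**Figure D3:**
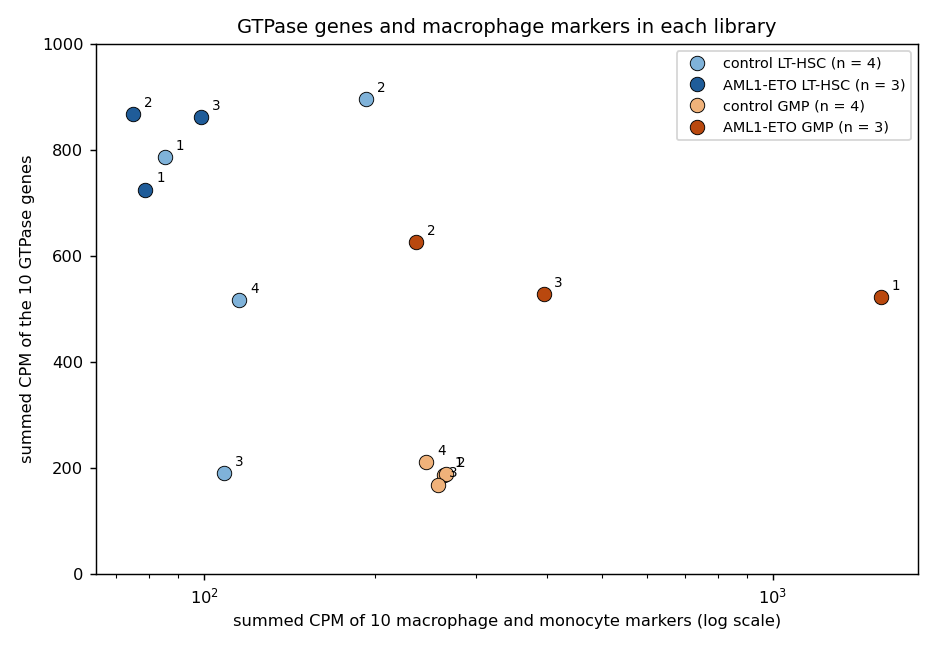
Summed CPM of the 10 GTPase genes against summed CPM of 10 macrophage and monocyte markers (log axis), 1 point per library with its replicate number. The 3 AML1-ETO GMP libraries lie between 523 and 626 CPM of GTPases at marker sums of 236 to 1549.5 CPM, and the 4 control GMP libraries lie between 169 and 212 CPM.

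In LT-HSC libraries the family as a whole was expressed in both genotypes, and only Gbp4 and Irgm1 passed the test, in opposite directions. Gbp4 fell and Irgm1 rose; over all 14589 genes tested in LT-HSCs, 12.3% were called, 7.59% as higher and 4.69% as lower, so 2 of 10 is not far from the background. The median log2 difference of the 10 genes was 0.60, against 0.03 over all genes. AML1-ETO libraries lay close to each other for most genes, and control libraries spread widely, with replicate 3 lowest.

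Gbp4 had 5.97, 2.91 and 2.87 CPM in AML1-ETO LT-HSC libraries and 84.2, 64.3, 15.3 and 67.0 CPM in control ones. Even the low control replicate 3 stood above all AML1-ETO libraries. The log2 change was -3.78 ± 0.65 (adjusted p = 0.0093), and -4.10 ± 0.38 without control LT-HSC replicate 3 (adjusted p = 0.0011). Leaving out AML1-ETO LT-HSC replicate 2 or 3 ended the call (adjusted p up to 0.0699). Gbp6 went the same way without passing the test: 3.22, 1.38 and 1.04 CPM against 17.5, 9.65, 7.84 and 9.56 CPM, no overlap, -2.47 on the log2 scale (adjusted p = 0.089). Without control LT-HSC replicate 3 Gbp6 was called (-2.61 ± 0.71, adjusted p = 0.0428).

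Irgm1 had 106, 170 and 165 CPM in AML1-ETO LT-HSC libraries against 53.2, 97.8, 33.3 and 57.1 CPM in control ones, without overlap. Its rise was 1.37 ± 0.34 (adjusted p = 0.0378), and 1.17 ± 0.29 without control LT-HSC replicate 3 (adjusted p = 0.0325). The call ended without any one AML1-ETO library, without control replicate 1 or 4, and with upper-quartile scaling (adjusted p up to 0.147). Tgtp2 also did not overlap, with 168, 166 and 202 CPM against 98.1, 119, 23.8 and 55.2 CPM, but its difference of 1.36 did not pass the test (adjusted p = 0.0969). It passed without control replicate 3 (1.06 ± 0.28, adjusted p = 0.0402), by DESeq2 and in 1 fit of all 14 samples (adjusted p over the alternatives from 0.0299 to 0.262). No overlap with AML1-ETO higher, as for Irgm1 and Tgtp2, held for 15.6% of all genes, and with AML1-ETO lower, as for Gbp4 and Gbp6, for 12.8%.

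The other 6 genes overlapped between the LT-HSC groups. Iigp1 had 48.9, 45.1 and 57.5 CPM in AML1-ETO libraries, between control values of 125, 122, 24.5 and 46.9 CPM. Gbp2 had 95.9, 104 and 93.3 CPM against 76.2, 106, 16.3 and 48.9 CPM. Log2 differences of these 6 ran from -0.57 for Iigp1 to 1.10 for Irgm2, with adjusted p from 0.302 to 0.818. Gbp3 had 55.1, 48.8 and 46.7 CPM, below 3 of the 4 control libraries (90.5, 73.1 and 76.4 CPM) but above replicate 3 (17.1 CPM).

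Marker lists differed between the LT-HSC groups as well. Mast cell and basophil markers summed to 7271 to 9682 CPM in AML1-ETO and 5.98 to 34.6 CPM in control LT-HSC libraries, the 8 GMP markers to 1178 to 1436 against 90.5 to 358 CPM, and endothelial markers to 341 to 450 against 84.8 to 114 CPM. B cell markers summed to 17.1 to 22.8 CPM in AML1-ETO and 62.4 to 211 CPM in control libraries, erythroid markers to 29.9 to 68.7 against 94.6 to 226 CPM, and neutrophil markers to 0.230 to 42.2 against 44.9 to 149 CPM. Their part in the differences of Gbp4 and Irgm1 was not tested. Macrophage and monocyte markers lay between 75.0 and 98.8 CPM in AML1-ETO and between 85.3 and 192 CPM in control libraries, the latter including replicate 3 at 108 CPM.

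The difference between the 2 genotype effects was tested in 1 fit of all 14 samples. It was positive, the effect in GMPs above that in LT-HSCs, for 4 of the 10 genes and negative for none, where 6.34% of 16116 genes were called, 3.43% as positive. Iigp1 differed by 6.34 ± 0.81 on the log2 scale (adjusted p = 0.0010), Gbp6 by 7.51 ± 1.73 (adjusted p = 0.0197) and Gbp2 by 2.81 ± 0.66 (adjusted p = 0.0212). Gbp4 was called too (adjusted p = 0.000335), and with control GMPs at the floor of 3 counts its difference was at least 11.09. The call of Gbp2 ended without any one AML1-ETO LT-HSC library, and that of Gbp6 without AML1-ETO LT-HSC replicate 2 or 3 (adjusted p up to 0.0656 for Gbp2 and 0.0799 for Gbp6). Irgm1, by contrast, had a difference of 0.07 (adjusted p = 0.978), with a rise of 1.37 in each cell type. Tgtp2 (1.89, adjusted p = 0.0584) and Igtp (2.05, adjusted p = 0.0833) did not pass with all libraries but passed without control LT-HSC replicate 3 (2.19 ± 0.36, adjusted p = 0.0033, and 2.39 ± 0.38, adjusted p = 0.0029).

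**Figure D4:**
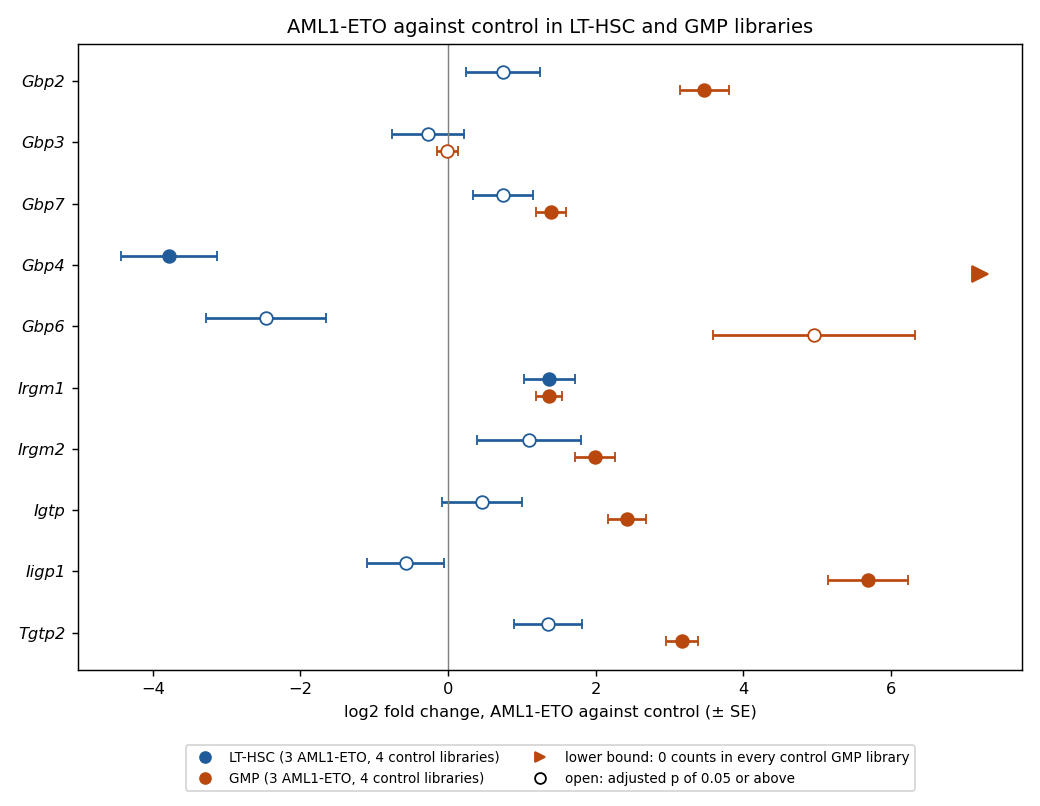
Log2 fold change of AML1-ETO against control, with its SE, for the 10 genes in LT-HSC (blue) and GMP (orange) libraries; filled points passed the test and the triangle marks the lower bound for Gbp4. Irgm1 has 1.37 in both cell types, while Gbp4 and Gbp6 lie below 0 in LT-HSC and above 0 in GMP.

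The makeup of the family, as shares of its summed CPM, separated the LT-HSC groups where the sum did not. Summed over the 10 genes, AML1-ETO LT-HSC libraries had 725, 867 and 863 CPM and control ones 786, 895, 191 and 517 CPM, so the sums overlapped. Gbp4 and Gbp6, the chromosome 5 pair, made up 8.26% to 14.8% of the sum in control LT-HSC libraries. In AML1-ETO LT-HSC libraries they made up 0.453% to 1.27%, in AML1-ETO GMP libraries 1.01% to 2.69%, and in control GMP libraries at most 0.228%. Control LT-HSC replicate 3, low in all genes, had 12.1%, inside the range of its group. The 4 genes on chromosome 11 gave 56.6% to 61.2% of the sum in AML1-ETO LT-HSC libraries and 35.6% to 45.4% in control ones. The 3 genes on chromosome 3 gave 65.5% to 69.1% in control GMP and 38.5% to 51.0% in AML1-ETO GMP libraries.

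**Figure D5:**
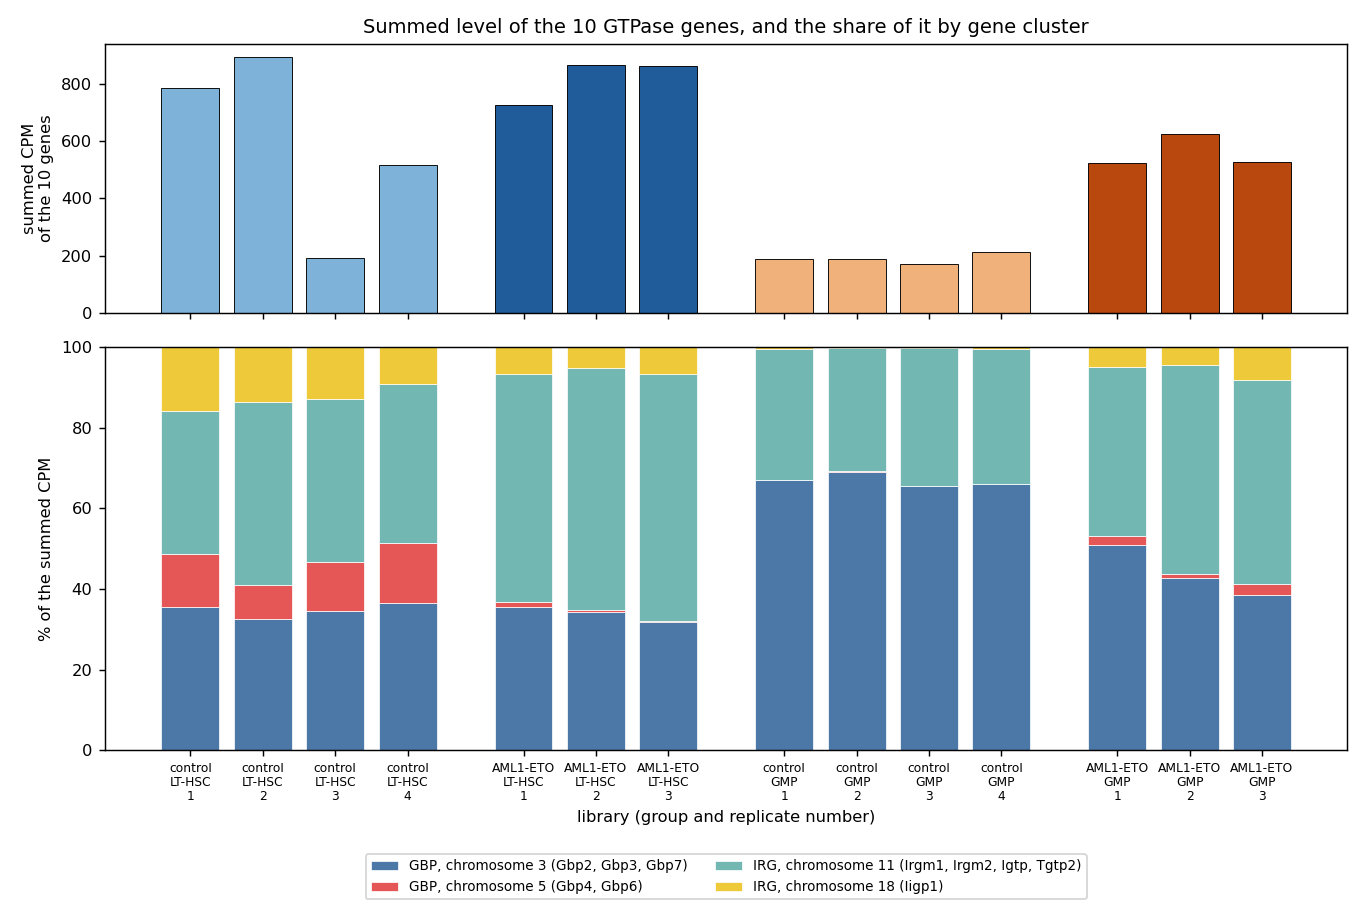
Summed CPM of the 10 GTPase genes (upper bars) and the percentage of that sum from the genes of each chromosome (lower bars) in every library. The red share of Gbp4 and Gbp6 is visible in all 4 control LT-HSC libraries, replicate 3 included, and is at most 2.69% elsewhere.

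Levels of different genes were compared per length, as CPM per kilobase of annotated exon. On that scale Igtp was the highest of the 10 in each of the 4 control LT-HSC libraries (group mean 38.8 ± 24.6, n = 4). Tgtp2 was the highest in each of the 3 AML1-ETO LT-HSC libraries (60.9 ± 6.88, n = 3), ahead of Igtp at 50.2 ± 2.97. Gbp3 led in each control GMP library (27.3 ± 1.03, n = 4), ahead of Igtp at 8.06 ± 1.09. In AML1-ETO GMP libraries Igtp led in replicates 2 and 3 and Gbp2 in replicate 1, with group means of 42.8 ± 16.1 and 31.8 ± 9.91. Their ranges overlapped, and so did those of Gbp3 and Tgtp2, both at 26.8. Gbp6 alone was the lowest gene in 8 of the 14 libraries. Gbp4 was lowest in 5, which include ties with Gbp6 at 0 counts in control GMP replicates 1 and 3.

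Between the cell types, 9 of the 10 genes were lower in control GMPs than in control LT-HSCs, the exception being Gbp3. Over all 16116 genes, 24.5% were called in that comparison, 10.6% as lower. The median log2 difference of the 10 genes was -2.68, against 0.02 over all genes. Gbp4 was at least 1344-fold lower, Iigp1 fell by 6.98 ± 0.63 on the log2 scale (adjusted p = 6.08e-06), Gbp6 by 6.26 ± 1.27 (adjusted p = 0.0027), Gbp2 by 3.10 ± 0.46 (adjusted p = 0.000298) and Tgtp2 by 3.08 ± 0.39 (adjusted p = 8.76e-05). Igtp, Irgm2, Gbp7 and Irgm1 fell by 1.09 to 2.28. The call of Irgm2 ended without control LT-HSC replicate 1 or 2 or any one control GMP library (adjusted p up to 0.0844). Ranges did not overlap for 6 of the 9, a pattern that 11.3% of all genes showed, and those of Gbp7, Irgm2 and Igtp overlapped through control LT-HSC replicate 3. Without that library the same number, 9, was called.

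In AML1-ETO mice fewer of the 10 genes were called between the cell types. Irgm1 alone was, lower in GMPs by 1.01 ± 0.32 on the log2 scale (adjusted p = 0.0344), where 21.7% of all genes were called, 12.6% as higher and 9.15% as lower. That call ended without AML1-ETO LT-HSC replicate 2 or 3 or AML1-ETO GMP replicate 1 or 3 (adjusted p up to 0.132). Tgtp2 was next (-1.19, adjusted p = 0.0555). Gbp3 was higher in every AML1-ETO GMP than in every AML1-ETO LT-HSC library, 70.8 to 105 against 46.7 to 55.1 CPM, without passing the test (adjusted p = 0.173). The opposite held for 4 genes, Gbp7, Irgm1, Iigp1 and Tgtp2, which were lower in every AML1-ETO GMP library. Of all genes, 21.1% were higher and 20.7% lower without overlap, so such a separation was common in this comparison. Control LT-HSC replicate 3 is in neither group compared but enters this fit through the shared filter, scaling and estimate of spread. Without it Gbp3 was called as higher (0.79 ± 0.16, adjusted p = 0.0030) and Irgm1, Tgtp2 and Gbp7 as lower.

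Of 14 further genes of the GBP and IRG families, 10 passed the low-count filter in GMPs and 7 of these rose in AML1-ETO GMP libraries, none falling. They were Gbp8 (log2 8.15 ± 1.43), F830016B08Rik (0.719 to 2.76 CPM against 0 to 0.116), Gbp9 (5.25 ± 0.60), Gm4951 (4.90 ± 0.75), Tgtp1 (4.42 ± 0.56), Gbp5 (2.31 ± 0.27) and Gm12250 (1.35 ± 0.30). Ifi47, a gene of the IRG family also induced by interferon gamma, was not among them, with 72.9, 86.3 and 143 CPM against 72.1 to 93.4 CPM. In LT-HSCs 1 of 11 tested passed, where 12.3% of all genes did. That was Gbp8, whose span overlaps Gbp4 on the same strand of chromosome 5, with 61 exon bases in common. Gbp8 had 1.49, 0.920 and 1.65 CPM in AML1-ETO and 58.4, 38.7, 28.4 and 28.6 CPM in control libraries, a change of -4.73 ± 0.50 on the log2 scale (adjusted p = 0.0017). Gbp9, whose span also overlaps Gbp4, has 60 exon bases in common with it. Reads in such shared bases cannot be assigned to a single gene. Gbp9 had 1.01, 1.46 and 2.20 CPM against 49.1, 37.5, 0 and 36.6 CPM and did not pass, though it did without control LT-HSC replicate 3 (-4.64 ± 0.41, adjusted p = 0.000964). Gbp11, at 0 in AML1-ETO LT-HSC libraries, was called as lower in that fit too (adjusted p = 0.0173). In AML1-ETO GMP libraries Gbp8 stood at 48.8 CPM in replicate 1 and at 3.92 and 1.71 CPM in the others, and without replicate 1 its rise was 5.47 ± 0.91 (adjusted p = 0.0133).

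Transcripts of the interferons themselves were scarce. Ifng, the gene of interferon gamma, was at 0 counts in every control GMP library and at 0 to 3.86 CPM in AML1-ETO GMP libraries, and Ifnb1 had 5 counts in all LT-HSC libraries together and none in GMPs. Of 12 ligand genes, 3 could be tested in GMPs, and 1 rose: Tnf, an inflammatory cytokine that acts with interferons, by 1.97 ± 0.44 (adjusted p = 0.0304). In LT-HSCs edgeR called none of 3 tested, 1 had an unadjusted p under 0.05, and DESeq2 called 0. Without control LT-HSC replicate 3, Il12a, a cytokine subunit, was called as higher (1.88 ± 0.38, adjusted p = 0.017). These cells were sorted, so the RNA says nothing of interferon made elsewhere in the marrow.

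Of 14 receptor and signalling genes, 6 rose in AML1-ETO GMP libraries and none fell with all libraries in the fit. The share of all genes called as higher was 5.47% in GMPs and 7.59% in LT-HSCs. Ifngr2, a chain of the interferon gamma receptor, was at -0.40 (adjusted p = 0.77) and was called as lower without AML1-ETO GMP replicate 1 (-1.90 ± 0.26, adjusted p = 0.0081). Irf1, a transcription factor that drives GBP genes, rose by 2.08 ± 0.17 (adjusted p = 0.0016), with 351, 387 and 244 CPM against 68.8 to 87.9 CPM. Irf9 rose by 1.07 ± 0.17 and Jak2 by 0.71 ± 0.15. Ifngr1, the ligand-binding chain of that receptor, had 383 ± 111 CPM (n = 3) in AML1-ETO and 419 ± 39.6 CPM (n = 4) in control GMPs. In LT-HSCs 5 of the 14 rose: Irf1 (1.45 ± 0.40, adjusted p = 0.0488), Stat3 (1.40 ± 0.24), Ifnar2 (1.17 ± 0.23), Jak1 (1.03 ± 0.19) and Tyk2 (0.80 ± 0.17). Irf1 was not called without control LT-HSC replicate 3 (1.27 ± 0.40, adjusted p = 0.0665), while Ifnar1, a chain of the type I receptor, then was (1.07 ± 0.23, adjusted p = 0.02).

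Genes listed as feedback inhibitors of the response moved as well. In GMPs 4 of the 9 rose, led by Socs3 (4.93 ± 0.59, adjusted p = 0.0068), an inhibitor of JAK signalling, and Cish (3.13 ± 0.48), a relative of Socs3. Isg15 (2.58 ± 0.44), which is also on the list of type I interferon targets, came next. Ptpn2, a phosphatase that acts on JAK kinases, rose by 0.62 ± 0.11 in GMPs and by 1.31 ± 0.20 in LT-HSCs. Usp18, an inhibitor on both lists, rose in LT-HSCs (1.53 ± 0.38, adjusted p = 0.0378), which made 2 of 9 there. The share of all genes called as higher was 7.59% in LT-HSCs and 5.47% in GMPs.

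Listed targets outside the 10 genes also rose in GMPs, where 5.47% of all genes were called as higher. The interferon gamma list includes Ifi47, itself of the IRG family. Of 17 interferon gamma targets tested, 9 rose and none fell, among them Serpina3g (4.06 ± 0.27), a protease inhibitor, and the chemokines Cxcl9 (5.86 ± 0.98, and 4.88 ± 0.91 without AML1-ETO GMP replicate 1) and Cxcl10 (2.81 ± 0.33). Ubd, a ubiquitin-like protein, was at least 250-fold higher in the group mean, with 0.850 to 27.6 CPM against 0 counts in controls, a bound that fell to 53.4-fold without AML1-ETO GMP replicate 1 (adjusted p = 0.0312). Without AML1-ETO GMP replicate 3 Ubd was not called (adjusted p = 0.0543). Of 26 type I interferon targets, 11 rose and none fell, led by Irf7 (3.53 ± 0.43), Zbp1 (2.94 ± 0.73), Rsad2 (2.89 ± 0.60) and Rtp4 (2.87 ± 0.61). Zbp1, a sensor of Z-form nucleic acids, was not called without AML1-ETO GMP replicate 1 (2.62 ± 0.77, adjusted p = 0.06). Most genes of both lists are known to answer to both kinds of interferon.

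The LT-HSC lists were mixed, where 7.59% of all genes were called as higher and 4.69% as lower. Of 16 interferon gamma targets 4 rose, with Cd274, which encodes the checkpoint ligand PD-L1, first (2.94 ± 0.28, adjusted p = 0.0012; 334 to 435 CPM against 31.6 to 70.1 CPM), then Serpina3g, Irf1 and Tap2. Of 27 type I targets 4 rose and 3 fell. Among those that rose, Oasl2 was not called without control LT-HSC replicate 3 (adjusted p = 0.0542). Cmpk2 (-2.76 ± 0.44), a mitochondrial nucleotide kinase, Ifitm3 (-2.39 ± 0.50), which restricts viral entry, and Ifit2 (-1.47 ± 0.31) fell. Usp18 was the largest of the rises (1.53 ± 0.38).

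Genes of proteins through which GBPs act were listed too. Calls over all genes were 5.47% higher and 3.96% lower in GMPs, and 7.59% higher and 4.69% lower in LT-HSCs. Of 11 inflammasome and cell-death genes, Casp4 rose in AML1-ETO GMPs by 1.52 ± 0.21 (adjusted p = 0.0104; 41.8 to 57.1 CPM against 13.8 to 23.4 CPM), and Pycard, the inflammasome adaptor, fell by 0.80 ± 0.21 (adjusted p = 0.0495). The Pycard call was at the edge and ended with DESeq2 size factors. The list had 1 lower gene in 3 of 13 alternatives, with a range of 0 to 2. Aim2, a DNA sensor, had 45.4 ± 13.4 CPM (n = 3) against 68.7 ± 6.67 CPM (n = 4) and was not called (adjusted p = 0.135). Without AML1-ETO GMP replicate 1, Aim2 was called as lower (-0.78 ± 0.21, adjusted p = 0.0443) and Gsdmd, the pore-forming gasdermin, as higher (0.36 ± 0.09, adjusted p = 0.0351). In LT-HSCs Nlrp3, another sensor, had 13.1 to 182 CPM in AML1-ETO libraries and 0 counts in all 4 control libraries, at least 1463-fold higher (adjusted p = 0.0142). Most of that mean came from AML1-ETO LT-HSC replicate 1, without which the bound was 311-fold and the call ended (adjusted p = 0.0559). Gsdmd rose there by 0.66 ± 0.17 (adjusted p = 0.0433), a call that ended without control LT-HSC replicate 3 (adjusted p = 0.0549).

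A further list joined the ATG8 conjugation machinery, which places GBPs and IRGs on vacuoles, with other genes of vacuole targeting. In GMPs 3 of its 15 genes were higher: Ubd, the cargo receptor Sqstm1 (1.44 ± 0.14) and, from the conjugation machinery, Atg16l1 (0.53 ± 0.12). In LT-HSCs 2 of 14 rose, Sqstm1 (2.60 ± 0.51) and Trim21 (0.90 ± 0.23), neither of them from the conjugation machinery. Since 5.47% of all genes were called as higher in GMPs and 7.59% in LT-HSCs, 2 of 14 is not far from the background. None of the 5 prenylation enzymes, which attach the lipid anchor of some GBPs such as Gbp2, passed in either cell type by edgeR, with 1 unadjusted p under 0.05 in GMPs and 0 in LT-HSCs, and DESeq2 called 0 of the 5. Their median log2 differences were -0.10 in GMPs and 0.09 in LT-HSCs.

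In control mice some pathway lists were also mostly lower in GMPs than in LT-HSCs, and others were not. Over all genes, 10.6% were called as lower and 13.9% as higher. Of 27 type I targets 14 were lower and none higher, led by Ifi44, Zbp1, Rtp4 and Irf7 (-5.74 to -3.57). Of 9 feedback inhibitors 3 were lower, Socs3 (-5.74 ± 0.70), Cish (-3.55 ± 0.65) and Socs1 (-2.46 ± 0.53), and 1 higher. Of 17 interferon gamma targets 6 were lower and 1 higher. The 11 inflammasome and cell-death genes had 2 lower and 2 higher, and the 15 ATG8 and vacuole-targeting genes 3 lower and 1 higher. Among 5 prenylation enzymes 1 was higher and none lower, and none of 4 ligand genes was called. Receptor and signalling genes split into 4 higher and 6 lower of 14. Irf8, a myeloid transcription factor (3.68 ± 0.70), and Ifngr1 (1.28 ± 0.21) were among the higher ones, and Irf2 (-1.60 ± 0.15) was among the lower.

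Across the 14 libraries most of the 10 genes varied together, and Gbp3 did not. Pearson's r between log2 levels was 0.97 for Gbp2 with Tgtp2 and for Gbp7 with Tgtp2, and 0.95 for Gbp4 with Gbp6. For Gbp3 it ran from -0.30 with Iigp1 to 0.18 with Irgm2. After the mean of each group was subtracted, r of Gbp3 with the others ran from 0.21 with Gbp6 to 0.91 with Gbp4; control LT-HSC replicate 3, low in all 10 genes, is among these points. These are descriptions over 14 libraries that fall into 4 groups and share their scaling.

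Among 13735 other genes, the profile most like the members' mean was that of Tgtp1 (r = 0.98, Spearman's rho = 0.96, n = 14), whose reads overlap with those of Tgtp2. Cish (r = 0.95), Socs3 (0.94), Gm12185 (0.94), Stab2 (0.93) and F11r (0.93) came next. Without control LT-HSC replicate 3 the closest 6 included Tgtp1 (0.98), Socs3 (0.96), Gm4951, Esyt2 and Parp12 (0.95 each). Tgtp1 and Socs3 were in both sets. Within groups, after the group means were subtracted, Tgtp1 again came first, followed by Nek6, 2610035D17Rik, Hspa12b, Rusc1 and Uvrag; without control LT-HSC replicate 3 the last 5 fell to ranks 57 to 617.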

How the data were processed

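Gene-level read counts of 14 libraries, unnormalised integers, are what the authors deposited. Per the labels' protocols, RNA came from an RNeasy Plus Micro kit, and SMART-Seq v4 and SMARTer Stranded kits were used for the libraries. HISAT2 2.0.5, featureCounts 1.5.0-p3 and mm10 are named per the submitters' processing notes. Neither annotation release nor strand setting was found there, and reads of overlapping or near-identical genes may be shared or lost. Of the rows, 105 repeat an earlier symbol.

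Counts were filtered with filterByExpr, scaled by TMM and tested in edgeR 4.0.16 (R 4.3.3) by its two-sided quasi-likelihood F test, and p-values were adjusted across every tested gene (Benjamini-Hochberg). AML1-ETO was compared with control on the 7 libraries of each cell type; the difference of effects and the comparisons between cell types used 1 fit of all 14. The test was run on simulated counts first. A gene with 0 counts in a group was set against 3 counts over the group. This and other limits cover counting error only. Alternatives were DESeq2 1.42.0, other size factors, no filter, a replicate block, summed copies (Tgtp1 with Tgtp2, Gbp6 with Gbp10) and each library left out. Within a cell type the block matched AML1-ETO with control libraries by replicate number. Such libraries come from mice of different genotype, so that matching joins different mice. In the fit of all 14 it matched LT-HSC with GMP libraries of the same genotype and number. Replicates of a group differed by 9.20 to 216 in chi-square per gene, far above sampling noise, so none was counted as a duplicate. Promoter windows and gene spans come from RefSeq (GRCm38.p6) and GENCODE M21. Members and gene lists were chosen with earlier results of these data known. Of each list, up to 4 called genes with the largest log2 difference are named; other named genes were chosen after their values were seen. Likeness to the members was computed for genes averaging 20 counts or more. A gene of the signalling list is counted with its list but not reported here by name.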

Additional observations from a re-analysis of the deposited data

Results flagged for a closer look

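The AML1-ETO effect in GMPs exceeded that in LT-HSCs, by a test of the difference itself, for Iigp1 (6.34 on the log2 scale), Gbp6 (7.51), Gbp2 (2.81) and Gbp4 (13.55, a fitted value that depends on the prior count because control GMPs had no counts). Irgm1 in control GMP replicate 4, at 30.6 CPM, lay far from the other 3 libraries of its group (27.7 to 28.1 CPM). It was 1 of 20 groups of 4 checked in this way, and chance alone flags about 1 in 20.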

How the results depend on the processing

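With 3 or 4 libraries a group, calls at the edge of the threshold moved easily. Of 840 alternative values for single genes, 774 kept direction and side of the threshold, 34 lost and 21 gained a call, and 11 changed sign; the cause was not tested. The sign changes were all in uncalled values: Gbp3 in LT-HSCs under the replicate block (0.11), Gbp3 in GMPs under DESeq2 size factors (0.024), DESeq2 (0.024) and without 1 library (range -0.17 to 0.11), the Irgm1 difference of effects under the block (-0.027) and without 1 library (-0.27 to 0.28), and Igtp between AML1-ETO cell types without 1 library (-0.55 to 0.0053).

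In LT-HSCs 1791 genes were called, against 2805 by DESeq2, 525 with the replicate block, 3166 in 1 fit of all 14 samples and 334 to 2376 leaving out 1 library. The 1 higher GTPase became 0 with upper-quartile factors or the block, 2 by DESeq2 or in the fit of 14, and 0 to 2 without 1 library; the 1 lower became 2 by DESeq2 and 0 to 2 without 1 library. In GMPs 1319 genes were called, against 816 with no filter, 2308 by DESeq2, 112 with the block, 458 in the fit of 14 and 131 to 3514 without 1 library; the 8 higher GTPases became 4 with the block, which ended the calls of Gbp4, Gbp7, Irgm1 and Irgm2, and 6 to 9 without 1 library. For the difference, 1021 genes became 1781 by DESeq2, 508 with the block and 471 to 1477 without 1 library, and the 4 GTPases 2 to 6. Between control cell types 3949 became 2660 to 4584, and 9 lower GTPases 8 to 9, without 1 library. Between AML1-ETO cell types 3505 became 2092 to 4577, and the 1 lower GTPase 2 with DESeq2 size factors, upper-quartile factors, DESeq2 or the block and 0 to 3 without 1 library, with 0 to 1 higher.

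The share of calls that were higher was 61.8% in LT-HSCs, 51.7% with upper-quartile factors and 47.1% by DESeq2. In GMPs it was 58.0%, 68.1% with no filter, 95.5% with the block, 86.0% in the fit of 14, 44.1% without AML1-ETO GMP replicate 2, 48.8% without replicate 3, and 87.1% to 91.1% without 1 control library. Between control cell types it was 56.9%, 44.9% with DESeq2 size factors and 40.6% by DESeq2. With no filter the median of all genes moved from -0.03 to -0.23 in GMPs and from 0.03 to 0.15 in LT-HSCs. Replicate numbers are not stated to pair samples, and same-number correlations of deviations ran from -0.08 to 0.16. Between AML1-ETO and control libraries of a cell type, which the block matches within a cell type, they ran from -0.08 to 0.03. Each AML1-ETO LT-HSC library correlated best with the GMP library of its own number, as did 1 of the 4 control libraries.

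With the block, calls as higher in GMPs became 2 for the other GBP and IRG genes, 1 for signalling, 0 for feedback, 4 for interferon gamma targets and 1 for type I targets; in LT-HSCs they became 0 for signalling, feedback and type I targets and 1 for interferon gamma targets. The block also ended the calls of Irgm1 in LT-HSCs, of Gbp6 in the difference and of Irgm2 between control cell types (adjusted p = 0.144). Depth limits Gbp4 in control GMPs to 0.0429 CPM.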
